A study of Homo sapiens with 16 samples.

Results

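The genes described here are 10 receptor tyrosine kinases: the 4 ERBB receptors EGFR, ERBB2, ERBB3 and ERBB4, the hepatocyte growth factor receptor MET, the 4 fibroblast growth factor receptors FGFR1, FGFR2, FGFR3 and FGFR4, and AXL. Every merged m6A region and every peak lying inside the annotated span of these genes was taken (GENCODE, human build hg38), whatever its strength. The rule gave 21 merged regions of 36970 in the whole set. They fell in 7 of the 10 genes, where 56.9% of 20033 protein-coding genes held at least 1, and 19 of the 21 held a peak in at least 1 library.

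The study compared m6A, a methyl mark on adenosine in RNA, between 2 human prostate cancer cell lines by MeRIP-seq, in which fragmented RNA is pulled down with an antibody to m6A (the IP) and sequenced beside RNA that saw no antibody (the input). C4-2B is sensitive to enzalutamide, a drug used against prostate cancer, and MDV-R is a single resistant line raised from C4-2B by serial passage, so line and resistance cannot be told apart. Both were labelled wild type and harvested at day 3 in medium with fetal bovine serum, and per the study's methods MDV-R was maintained with enzalutamide in the medium, so exposure to the drug and line cannot be told apart either. Each line had 4 replicates of IP and 4 of input. Sample titles for MDV-R add the name T24R2, and the cell line field was followed here.

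Growth factor receptors of this class span the membrane once. Binding of a ligand brings receptors together and switches on a kinase inside the cell, which feeds the RAS-MAPK and PI3K-AKT pathways. ERBB2 has no known ligand of its own and ERBB3 has a weak kinase, so both act through partners. In prostate epithelium they carry growth signals from the surrounding stroma. The m6A mark is written mainly within the DRACH consensus (A, G or T, then A or G, then A, then C, then A, C or T), with GGACT among its preferred forms, and is known to gather around stop codons and in long exons.

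The depth of each list limits what it can show. The lists held 13191 to 24746 peaks in C4-2B and 23880 to 30645 in MDV-R, the lowest count being C4-2B replicate 1. The values behind each peak allowed the number of IP tags (fragments piled up at the summit) and the local background taken by the peak caller to be recovered. Tags are given scaled to the mean IP library, whose relative depth ran from 0.898 to 1.17. The input was 0.747 to 1.22 times as deep as the IP in C4-2B and 1.56 to 3.15 times in MDV-R, so input depth and line cannot be told apart. A library without a peak in a region has no value there, not a value of 0, and the fewest tags of any listed peak in low background were 6 in C4-2B replicate 1 and 4 in the other lists. The prostate luminal genes KLK2, KLK3, FOLH1, HOXB13, TMPRSS2, FOXA1, STEAP2 and TRPM8 each held a region, as did 2 of 8 urothelial genes (UPK2 and UPK3A). Neither GATA3, KRT5, TP63, PPARG, UPK1A nor UPK1B held one. By line, TRPM8 had peaks in C4-2B lists only, and the other luminal genes named had peaks in both lines. So did UPK2 (a region in 4 lists of each line) and UPK3A (2 C4-2B and 4 MDV-R lists). What the name T24R2 refers to was not tested.

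The regions were numbered along each gene in the direction of transcription. EGFR-6, compared below, had no DRACH motif within 50 nt of its strongest summit and is not printed here, nor is EGFR-1. The following stretches of 24 nt were read from hg38 on the strand of the gene. They hold the DRACH motif nearest to the strongest summit of 9 of the 21 regions, with the motif in capitals.
EGFR-3, chr7:55120728-55120751, plus strand: acacatctcaTAACActggtttgg
EGFR-4, chr7:55205605-55205628, plus strand: tattggagcaTGACCacggaggat
EGFR-5, chr7:55208688-55208711, plus strand: ctccagctgaTGACAccaaagctt
ERBB2-2, chr17:39728172-39728195, plus strand: ctgtcctaagGAACCttccttcct
ERBB3-1, chr12:56101790-56101813, plus strand: ctccagatgaAGACTatgaatata
ERBB4-2, chr2:211894106-211894129, minus strand: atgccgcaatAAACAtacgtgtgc
MET-1, chr7:116699371-116699394, plus strand: tcccatgtcaGGACTgcagcagca
MET-3, chr7:116797900-116797923, plus strand: aaaatgattaTAACTaaaagctct
FGFR2-1, chr10:121479781-121479804, minus strand: ctgagcagggAGACCatgcctccc
MET-1 was the only one of these 9 with the GGACT form, and its methylatable A stood 2 nt from the summit. The other motifs were spread from 2 nt (ERBB4-2) to 39 nt (FGFR2-1) from their summits. Over all 21 regions, a window of 50 nt on each side of the strongest summit was read on the gene's strand. ERBB2-1 (coding) and FGFR1-1 (5'UTR) held no peak, so the middle of the region was used. GGAC lay in that window in 3 of 5 coding (CDS) regions, ERBB2-1 among them, and 1 of 6 in the 3'UTR. It also lay in 1 of 1 in the 5'UTR (FGFR1-1), 4 of 8 intronic regions and 0 of 1 in a non-coding exon. Among all regions of the set the same window held GGAC in 46.1% of those in coding sequence and 46.7% of those in 3'UTRs. The shares were 46.1% in 5'UTRs, 33.8% in introns and 41.6% in non-coding exons. A DRACH motif lay in that window in 19 of the 21, all but EGFR-6 and ERBB4-5. Among all regions of the set it lay there in 88.5% of those in coding sequence and 91.7% of those in 3'UTRs. The shares were 74.6% in 5'UTRs, 84.9% in introns and 88.8% in non-coding exons. These matches are letters in a window and were not tested as sites.

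By annotation, 8 of the 21 regions lay in an intron, 6 in a 3'UTR, 5 in coding sequence, 1 in a 5'UTR and 1 in a non-coding exon. The class was read at the strongest summit. ERBB2-1 (coding) and FGFR1-1 (the 5'UTR region) held no peak and were classed at the middle of the region. Of 31961 regions in genes these classes took 39.4%, 15.3%, 28.3%, 6.43% and 10.5%. Each of the 6 receptor genes with a called exonic summit had one within 300 nt of its stop codon, as did 4900 of 8418 coding genes with such a summit (58.2%), the window having been chosen after the values were seen. In MET and FGFR1 that summit came from a region called in only 2 lists (MET-2 and FGFR1-3), and in ERBB3 it lay near the edge of the window. Relative to the stop codon, with negative values before it, the strongest summit lay at -36 nt in EGFR, 152 nt in ERBB2, -276 nt in ERBB3, 163 nt in MET, -42 nt in FGFR1 and 104 nt in FGFR2. The ERBB2 position and its 3'UTR class are those of MDV-R replicate 1. Summits of ERBB2-2 ranged over 430 nt, and all libraries but this one and C4-2B replicate 2 had theirs before the stop codon. EGFR and MET had further summits deep in the 3'UTR, at 3080 and 5510 nt after the stop codon in EGFR and at 1776 nt in MET. MET-1 stood apart at the other end of its transcript, in exon 2 of 21, a coding exon of 1214 nt.

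**Figure D1:**
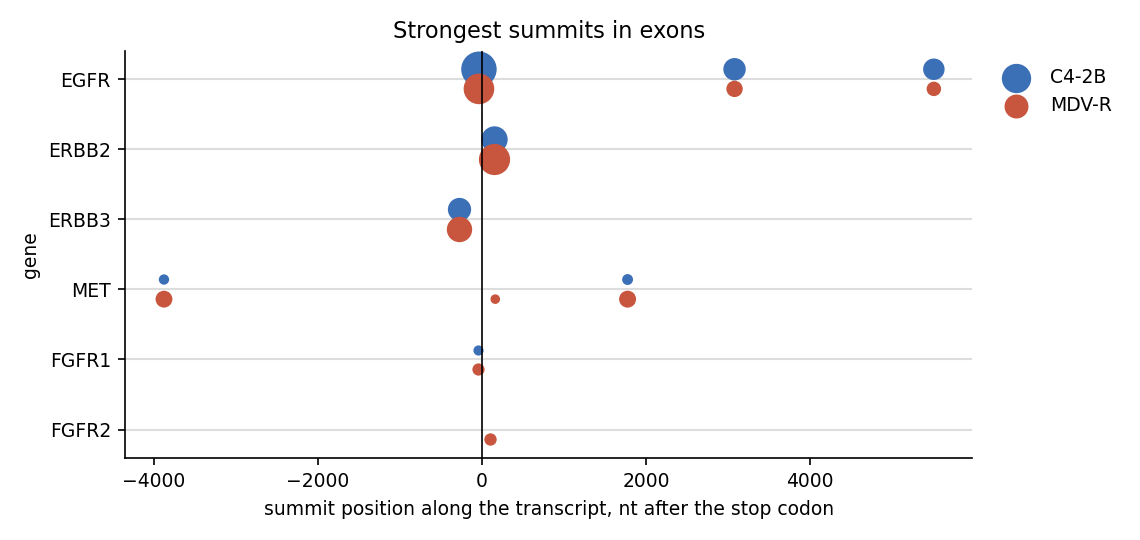
Position of the strongest summit of each exonic region along the transcript, in nt after the stop codon (vertical line at 0), for the 6 genes with such a region. Dot area follows the mean scaled IP tags over the libraries that listed a peak (blue, C4-2B and red, MDV-R), and every gene has a summit within 300 nt of the line. For MET and FGFR1 that summit is of a region called in 2 lists. Both ERBB2 dots stand at the summit of MDV-R replicate 1.

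Presence of a peak was compared first, since the lists record it directly. Of the 19 regions with a peak, 5 were called in all 8 lists (25.9% of 36076 regions): EGFR-1, EGFR-4, ERBB2-2, ERBB3-1 and ERBB4-2. One, EGFR-3, had a peak in all 4 lists of C4-2B and none of MDV-R (1.22% of all regions), and 1, FGFR2-1, in all 4 MDV-R and no C4-2B list (3.68%). More MDV-R than C4-2B lists held 9 of the 19 (49.7% of all regions did so) and the reverse held for 3 (18.4%), so the balance of calls over the receptors was near that of the whole set. In a two-sided Fisher's exact test of 4 against 4 lists the smallest p is 0.0286, reached by EGFR-3 and FGFR2-1. After Benjamini-Hochberg adjustment over 36076 regions it was 0.584 for both, and no region of the whole set passed, while 1766 had an unadjusted p below 0.05. With 4 lists a line, a region could pass only if most regions of the set reached the smallest p, so the adjusted test cannot decide on single regions.

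**Figure D2:**
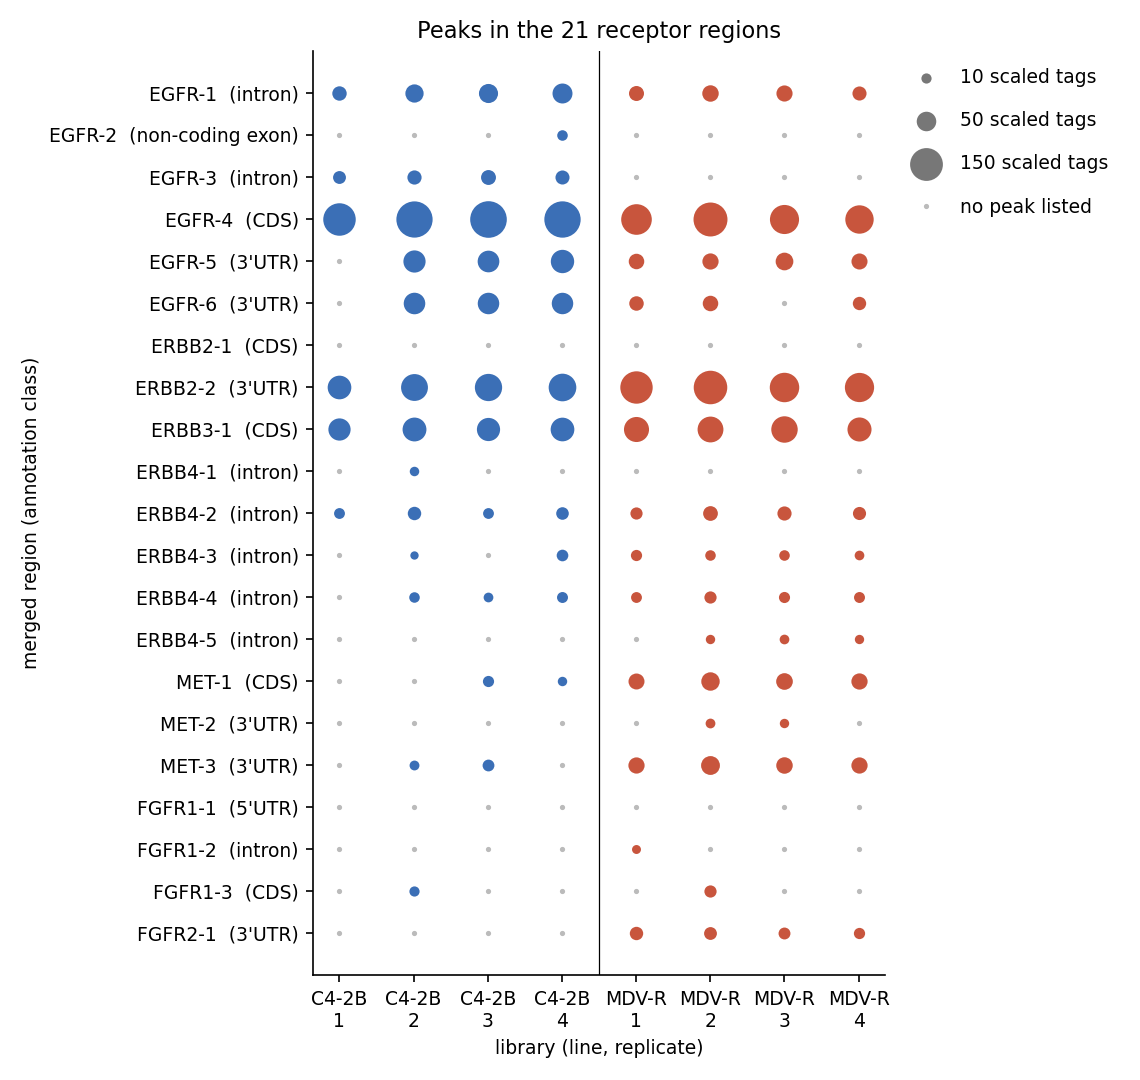
Peaks in the 21 receptor regions (rows, with annotation class) by library (columns). Dot area follows the scaled IP tags at the summit and a grey point marks a region without a listed peak. EGFR-4 and ERBB2-2 carry the largest dots in both lines, and C4-2B replicate 1 has peaks in 6 regions against 11 to 15 in the other libraries.

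EGFR, the receptor for EGF and TGF-alpha, held 6 regions over its span (chr7:55019017-55211628, plus strand), more than any other of the 10 genes. The strongest was EGFR-4 (chr7:55205054-55206758), in exon 28 of 28 across the stop codon. The 4 C4-2B libraries had 147, 184, 188 and 185 scaled tags there and the 4 MDV-R libraries 130, 161, 117 and 111. All but MDV-R replicate 2 lay below every C4-2B library, and C4-2B replicate 1 was the lowest of its line. These peaks ranked above 85.0% to 98.6% of the peaks of their lists by p-value.

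The limma fit over the 9327 regions called in all 8 lists gave a log2 difference of -0.44 (SE 0.14, adjusted p = 0.00893) for the IP tags of EGFR-4, MDV-R minus C4-2B. It is 1 of 2 receptor regions of 5 that passed as lower in MDV-R (19.9% of all tested did). The adjusted p rose to 0.0507 without C4-2B replicate 2 and to 0.0519 without MDV-R replicate 3. The local background at the same summit, in units of each library's lowest background, was 96.5, 78.1, 105 and 102 in C4-2B and 24.2, 16.2, 67.6 and 14.8 in MDV-R. The lines did not overlap, as at 15.5% of shared regions with all MDV-R values lower, and MDV-R replicate 3 stood above the rest of its line. The background fell by 1.92 on the log2 scale (SE 0.40, adjusted p = 0.0018; 13.4% of regions passed in this direction), against a median of -0.48 over all shared regions.

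With IP tags lower by a smaller factor than background, the IP over background at EGFR-4 was higher in MDV-R by 1.48 on the log2 scale (SE 0.46), where the median of all shared regions was 0.44. It did not pass (adjusted p = 0.116). None of the 5 receptor regions passed for this quantity in either direction (0.236% of all shared regions passed as higher and 0% as lower in limma), although EGFR-4 and EGFR-1 had unadjusted p-values of 0.0012 and 0.0202. Without MDV-R replicate 3, whose input was 1.56 times its IP in depth against 2.71 to 3.15 in the rest of that line, the difference at EGFR-4 was 2.00 (adjusted p = 0.00599), and with the deposited fold enrichment it was 1.43 (adjusted p = 0.013). In bulk samples like these, less of a transcript per cell and fewer cells that hold it cannot be told apart.

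Farther into the 3'UTR, EGFR-5 (chr7:55208489-55209363) had peaks in 3 lists of C4-2B and all 4 of MDV-R. The C4-2B values were 65.9, 62.7 and 73.5 scaled tags for replicates 2 to 4, and the MDV-R values were 29.6, 32.9, 40.1 and 32.1. EGFR-6 (chr7:55210882-55211370), near the end of the transcript, had 61.9, 61.6 and 61.3 tags in C4-2B replicates 2 to 4 and 25.2, 29.6 and 20.7 in MDV-R replicates 1, 2 and 4. In both regions every MDV-R value lay below every C4-2B value, which among the 8 receptor regions called in at least 3 lists of each line held for these 2 (18.1% of all such regions, 14.7% of those in every list), while at 2 others all MDV-R values lay above (14.3%). C4-2B replicate 1 had no peak in either region and MDV-R replicate 3 none in EGFR-6.

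Over the 13507 regions called in at least 3 lists of each line, the limma difference in IP tags was -1.01 (SE 0.18, adjusted p = 1.33e-07) at EGFR-5 and -1.31 (SE 0.19, adjusted p = 4.14e-10) at EGFR-6, with missing libraries left out of the fit. C4-2B replicate 1, missing at both, was the lowest of its line at EGFR-1 and EGFR-4. Leaving it out there moved the difference from -0.48 to -0.71 at EGFR-1 and from -0.44 to -0.53 at EGFR-4. How far its absence enlarges the differences at EGFR-5 and EGFR-6 was not tested. In the same fit 4 of 8 receptor regions passed as lower in MDV-R (21.1% of all tested), and all 4 were in EGFR. The same 4 EGFR regions were the ones of the 8 that passed as lower in background (8.8% of all tested, against 1.3% that passed as higher), with differences of -1.75 at EGFR-5 (adjusted p = 0.0164) and -2.04 at EGFR-6 (adjusted p = 0.00727). The IP over background passed at neither (0.74, adjusted p = 0.447, and 0.73, adjusted p = 0.459), nor at any other of the 8 (0.222% of all tested passed as higher and 0.0074% as lower in limma).

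At the 5' end, EGFR-1 (chr7:55018912-55021133) covered exon 1 and the start of intron 1. It held 24.9, 42.9, 47.5 and 52.4 scaled tags in C4-2B and 27.4, 34.0, 32.5 and 23.6 in MDV-R. The lines overlapped through C4-2B replicate 1. The summits were not at one place, lying from 104 to 1859 nt after the gene start and over a range of 1755 nt, so the values compare the strongest point of each library and not a shared position. The IP difference was -0.48 (SE 0.18, adjusted p = 0.0314) and was lost without C4-2B replicate 2, 3 or 4 or MDV-R replicate 1 or 4 (adjusted p 0.0867 to 0.19). The background was 13.3 to 17.9 in C4-2B and 3.75 to 9.90 in MDV-R, with no overlap, and its difference was -1.58 (SE 0.45, adjusted p = 0.0196). That call was lost without C4-2B replicate 1 or 4 or MDV-R replicate 1 or 2 (adjusted p 0.0514 to 0.0805).

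The remaining 2 EGFR regions lay close together inside intron 1. EGFR-3 (chr7:55120124-55120999) had 18.9, 24, 27 and 23.4 scaled tags in C4-2B and no peak in MDV-R, and its 4 summits agreed within 23 nt. Its strongest summit lay 3 nt from the A of the motif printed above. With each list limited to its 13191 strongest peaks, the size of the smallest list, it kept 3 of its 4 calls in C4-2B and had none in MDV-R, and so no longer met the rule of all 4 lists against none. EGFR-2 (chr7:55119058-55119338), in an exon of a non-coding EGFR transcript, was called only in C4-2B replicate 4, with 11.1 scaled tags.

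ERBB2, the partner receptor that other ERBB proteins pair with, moved the other way. Its called region, ERBB2-2 (chr17:39727118-39728575), lay in exon 27 of 27 over the start of the 3'UTR. C4-2B had 75.6, 98.9, 102 and 105 scaled tags and MDV-R 146, 157, 120 and 118. Every MDV-R library lay above every C4-2B library, as at 13.3% of shared regions. The summits were not at one place. They lay at 40312 nt after the gene start in C4-2B replicate 2, 40282 nt in MDV-R replicate 1 and 39882 to 39977 nt in the other libraries. The values thus compare the strongest point of each library, and within each place those of MDV-R were above those of C4-2B. The IP difference was 0.51 (SE 0.15, adjusted p = 0.0025), a 1.42-fold rise, and was the only 1 of the 5 shared receptor regions to pass as higher (14.3% of all tested).

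The background at ERBB2-2 was 23.3, 25.7, 38.6 and 18.8 in C4-2B and 34.7, 40.4, 75.1 and 30.9 in MDV-R, with overlap, and differed by 0.73 (SE 0.37, adjusted p = 0.177). None of the 5 shared receptor regions passed as higher in background (1.8% of all tested did) or had all MDV-R backgrounds above those of C4-2B (2.11%). Under median centring ERBB2-2 passed, with a difference of 1.22 (adjusted p = 0.0048). IP over background differed by -0.22 (SE 0.46, adjusted p = 0.82), and by 0.11 without MDV-R replicate 3. A second merged region, ERBB2-1 (chr17:39726369-39726852, exon 24), held no peak in any list, as did 2.42% of all merged regions.

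ERBB3, which binds neuregulins and recruits PI3K when paired with ERBB2, held 1 region (ERBB3-1, chr12:56101343-56102174) in its last coding exon, and an unnamed protein-coding gene of the annotation overlaps it. The scaled tags were 66.1, 76.9, 72.4 and 75.8 in C4-2B and 85.4, 91.1, 95.7 and 78.3 in MDV-R. The lines did not overlap, though C4-2B replicate 2 and MDV-R replicate 4 were close. The IP difference of 0.27 (SE 0.15) did not pass (adjusted p = 0.164), and passed when each library was centred on its median over the regions (0.29, adjusted p = 0.00322). The background ranged from 42.5 to 83.2 in C4-2B and from 33.4 to 71.3 in MDV-R (-0.49, SE 0.36, adjusted p = 0.356). IP over background differed by 0.76 (SE 0.40, adjusted p = 0.347), and by 0.94 (adjusted p = 0.0426) without MDV-R replicate 3.

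ERBB4, the other neuregulin receptor, differed from the rest of its family in that all 5 regions were intronic and the counts were low. The gene is the longest of the set (1163.1 kb, chr2:211375717-212538841, minus strand), and 4 of its regions sat in intron 3 between chr2:211888517 and chr2:211894386. ERBB4-2 (chr2:211893856-211894386) was called in every list, with 12, 21, 11.9 and 17.8 scaled tags in C4-2B and 16.4, 26.3, 23.9 and 19.8 in MDV-R. The lines overlapped. The IP difference was 0.48 (SE 0.22, adjusted p = 0.0785), and it passed under median centring (adjusted p = 0.0347), without C4-2B replicate 2 (adjusted p = 0.0383) and without MDV-R replicate 1 (adjusted p = 0.042).

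The background at ERBB4-2 was at or near each library's lowest value (1.00 to 1.61 in C4-2B and 1.00 to 1.88 in MDV-R), in contrast to 18.8 or more at ERBB2-2 and 14.8 or more at EGFR-4. ERBB4-4 had 8.64 to 12.3 scaled tags in 3 C4-2B libraries and 12 to 16.5 in 4 MDV-R libraries (0.34, SE 0.26, adjusted p = 0.319). ERBB4-3 had peaks in 2 lists of C4-2B and 4 of MDV-R (4.99 and 14.5 against 8.49 to 13.1 scaled tags) and ERBB4-5 in 0 and 3 (7.54 to 8.54 scaled tags in MDV-R). ERBB4-1, in intron 1 near the gene start, was called once, in C4-2B replicate 2, with 7.99 scaled tags. At these levels a library just under the caller's threshold and one without signal look alike.

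**Figure D3:**
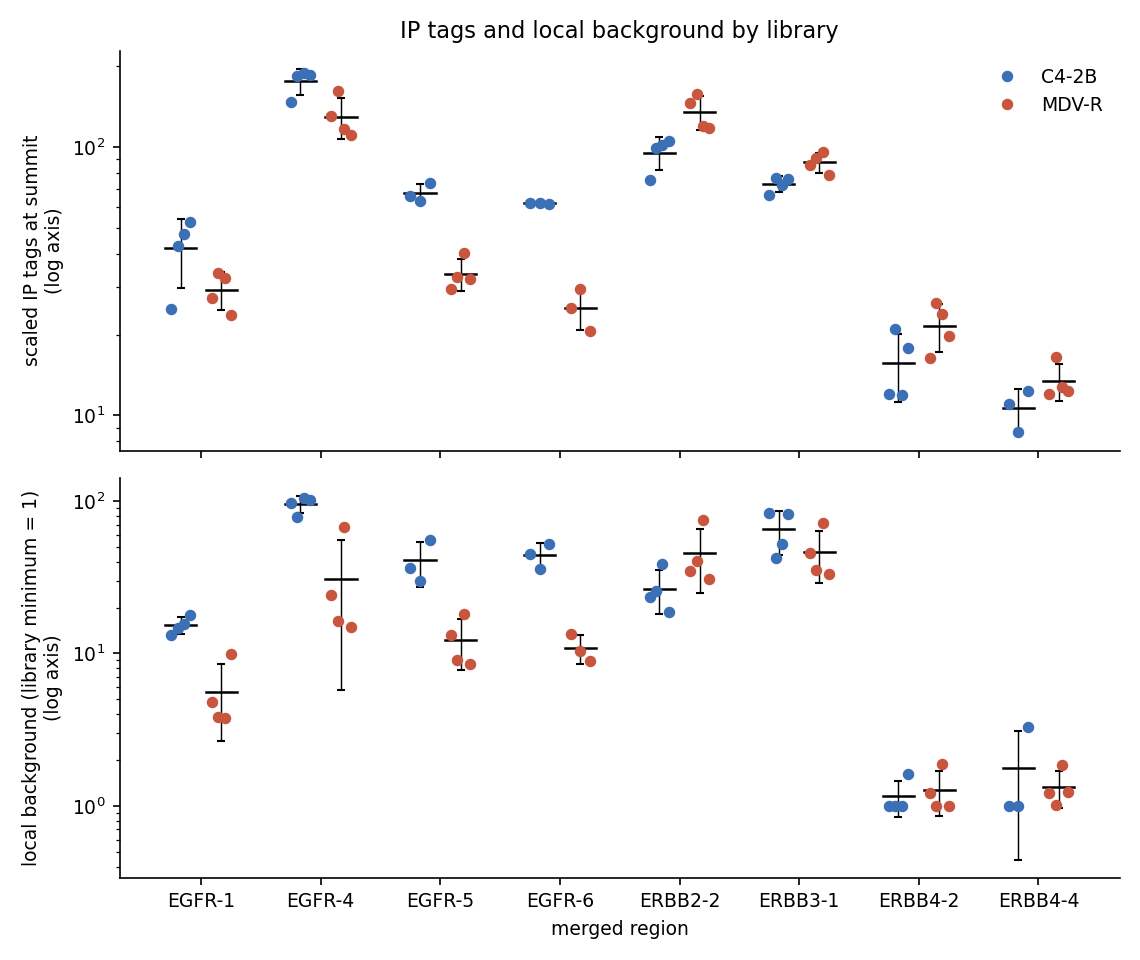
Scaled IP tags at the summit (top) and local background in units of each library's lowest (bottom), both on log axes, at the 8 receptor regions called in at least 3 lists of each line. Points are libraries (blue, C4-2B and red, MDV-R), with the mean and SD in black. At EGFR-4, EGFR-5 and EGFR-6 the MDV-R means are lower in both panels, while at ERBB2-2 all MDV-R tags are above those of C4-2B.

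**Figure D4:**
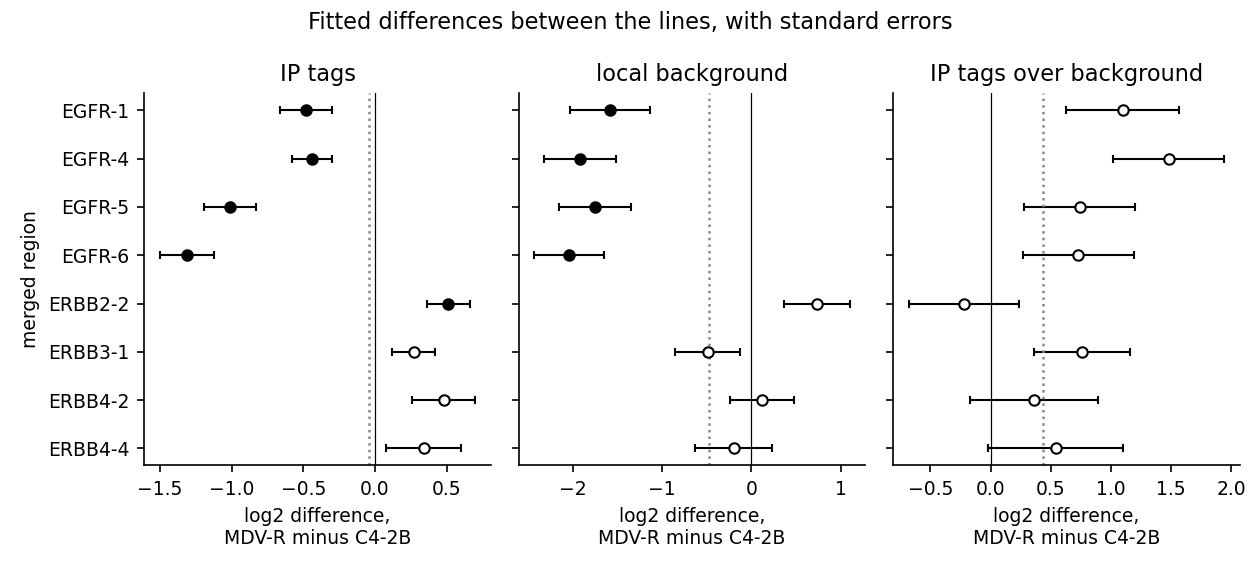
Fitted log2 differences (MDV-R minus C4-2B, limma, bars show the SE) for the same 8 regions in IP tags, local background and their ratio, with filled points for an adjusted p below 0.05. EGFR-5, EGFR-6 and ERBB4-4 come from the fit on regions called in at least 3 lists of each line, and the dotted line is the median of all regions called in every list (-0.04, -0.48 and 0.44).

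MET, the receptor for hepatocyte growth factor, had more tags in each MDV-R library than in any C4-2B library that listed a peak, at 2 of its 3 regions. Over all 1300 regions with peaks in 2 lists of C4-2B and 4 of MDV-R, 31.8% had all MDV-R values above and 12.2% all below, and of the 3 such receptor regions 2 had all above. MET-1 (chr7:116698954-116700210), in coding exon 2, was called in C4-2B replicates 3 and 4 with 13 and 7.80 scaled tags and in every MDV-R list with 31.8, 43.9, 35.0 and 33.0. All MDV-R values were above both C4-2B values, and the mean over libraries with a peak was 3.46 times as high. The summits ranged over 644 nt, from 27149 to 27255 nt after the gene start in MDV-R and at 27793 and 27322 nt in the 2 C4-2B libraries, so the values compare the strongest point of each library. MET-3 (chr7:116797505-116798251), in the 3'UTR, had 8.99 and 15.1 scaled tags in C4-2B replicates 2 and 3 and 32.9, 46.1, 34.2 and 33.0 in MDV-R, again without overlap, with a mean 3.03 times as high. With each list limited to its 13191 strongest peaks MET-1 was called in no C4-2B list and 4 MDV-R lists, and MET-3 in 1 and 4. No fit was run on either region because 2 C4-2B libraries had no value, and calls in 2 against 4 lists gave p = 0.429 in Fisher's exact test (adjusted p = 1.00).

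The background at the MET summits was higher in MDV-R too, at 2.66 to 5.39 against 1.00 and 2.35 at MET-1, and at 3.71 to 7.51 against 1.00 in both C4-2B libraries at MET-3. It moved with the IP tags, and its part in the difference in calls was not tested. MET-2, just after the stop codon, was called in MDV-R replicates 2 and 3 only, with 8.78 and 7.69 scaled tags. A further 3 intronic MET peaks, 1 in C4-2B replicate 2 and 2 in MDV-R replicate 3, lay outside the merged regions and had 7 or 8 tags before scaling.

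FGFR2, a fibroblast growth factor receptor, had its 1 region called in all 4 MDV-R lists and in no C4-2B list. FGFR2-1 (chr10:121479511-121480182, minus strand), in exon 18 of 18 after the stop codon, had 20.8, 18.7, 15.4 and 13.2 scaled tags in MDV-R and no peak in C4-2B. The 4 summits lay within 25 nt of each other. The background there was 3.63, 2.02, 1.00 and 1.18. With each list limited to its 13191 strongest peaks FGFR2-1 kept 2 of its 4 calls in MDV-R and had none in C4-2B, and so no longer met the rule of all 4 lists against none.

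FGFR1 held 3 regions, none called in more than 2 lists. FGFR1-3 (chr8:38413461-38413909), over the stop codon, was called once in each line, with 9.99 scaled tags in C4-2B replicate 2 and 16.5 in MDV-R replicate 2. FGFR1-2, in intron 2 where the annotation places the pseudogene RPS20P22, was called in MDV-R replicate 1 alone with 6.57 scaled tags, and FGFR1-1 in the 5'UTR held no peak. FGFR3, FGFR4 and AXL, the receptor for GAS6, held neither a merged region nor a peak in any of the 8 lists, which says only that nothing there passed the caller's threshold.

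**Figure D5:**
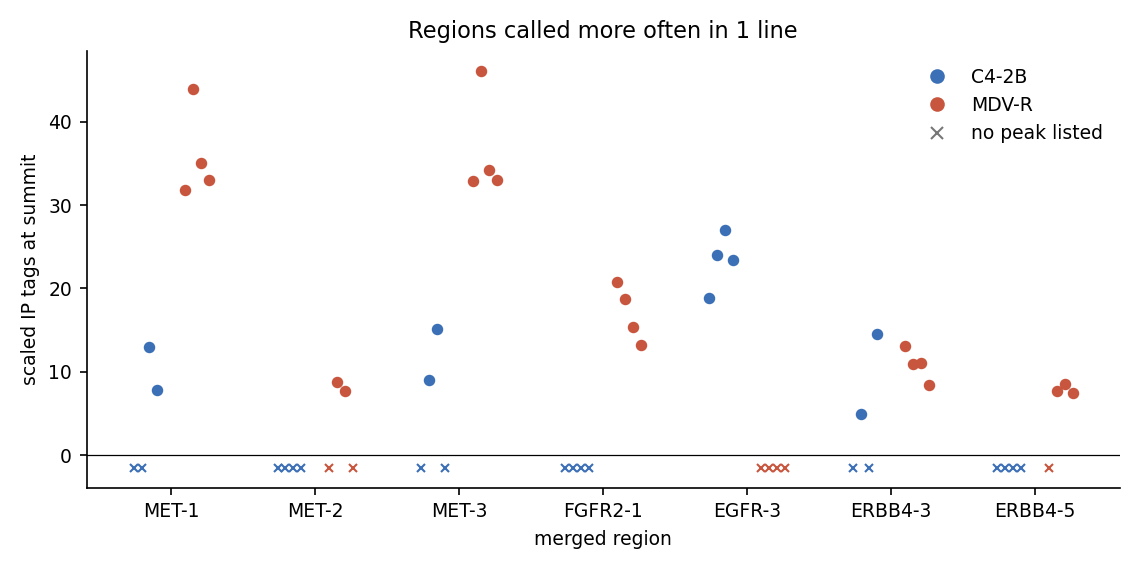
Scaled IP tags at the summit for the 7 receptor regions whose calls differed by at least 2 lists between the lines, by library (blue, C4-2B and red, MDV-R), with crosses below 0 for libraries that listed no peak. EGFR-2, EGFR-5, ERBB4-1, ERBB4-4 and FGFR1-2, which differed by 1 list, are not drawn. At MET-1 and MET-3 the 4 MDV-R libraries lie between 31.8 and 46.1 and the C4-2B libraries with a peak at 15.1 or lower.

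Other genes of the pathway were counted beside the receptors. Of 20 other receptor tyrosine kinases 13 held a region, and of their 38 regions with a peak 7 were called in every list, 3 of which passed as higher and 0 as lower in MDV-R for IP tags. The ligand genes (18, of which 11 held a region) had 8 of 28 regions called in every list, with 2 higher and 2 lower. The adaptors and proximal signalling genes had 25 of 46, with 7 higher and 3 lower, the negative regulators 18 of 47, with 4 higher and 5 lower, and the RAS-MAPK and PI3K cascade 8 of 35, with 4 higher and 0 lower. The background shares for these calls are the 14.3% and 19.9% given above. The median IP difference was 0.27 over the 5 shared receptor regions, which ran from -0.48 (EGFR-1) to 0.51 (ERBB2-2), and -0.04 over all shared regions. It was 0.36 over the other receptor kinases, -0.08 over ligands and 0.05 over adaptors. Over negative regulators it was -0.07, and over the RAS-MAPK and PI3K cascade 0.25.

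A region called in all lists of 1 line and none of the other was found once each in 3 lists, in MDV-R (1 of 28 regions with a peak for ligands, 1 of 46 for adaptors and 1 of 39 for luminal genes, against 3.68% of the whole set), and none was found in C4-2B (1.22%). NRG2, which encodes a neuregulin that binds ERBB3 and ERBB4, had such a region in coding sequence (chr5:139847730-139848746) with 30 to 62 tags before scaling. UBASH3B, a phosphatase that binds CBL and is known to act on EGFR turnover, had one in its 3'UTR (chr11:122809762-122810238) with 10 to 16 tags. The prostate luminal gene STEAP2, a metalloreductase, had one in coding sequence (chr7:90226714-90227233) with 44 to 58 tags.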

How the data were processed

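Per the labels and the study's methods, the authors prepared stranded low-input libraries, aligned them to hg38 (GENCODE release 39) with STAR 2.7.0, kept uniquely mapped reads without duplicates (SAMtools 1.10) and called IP over input peaks per replicate with MACS2 3.0.0a6. The deposited narrowPeak lists hold for each peak a display score, the fold enrichment at the summit (a ratio with 1 added on both sides), the -log10 p and -log10 q-values, and the summit offset. The authors also deposited 1 bed list of merged regions without values, and how it was merged is not given in the sources used here. Reads were not analysed here.

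IP tags and local background were solved from the fold and -log10 p. Whole tags were found for 99.99 to 100.0% of peaks (tolerance 0.002). The shortest peak was 239 to 293 nt wide, not the stated extension of 100 nt, and tags at separate summits outnumbered those implied by the stated genome size, so tags were scaled by relative depth and not to tags per library total as first planned. The strongest peak stood for a region (overlap of at least 1 bp). A region with no summit of any list inside it was classed at its middle. Classes came from GENCODE 44, coding sequence taking precedence over 3'UTR, then 5'UTR, then exons of non-coding transcripts, then introns. Motifs came from hg38.

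Log2 values were tested with limma 3.58.1 (lmFit, eBayes with trend, R 4.3.3) over 9327 regions called in all 8 lists, and presence with Fisher's exact test over 36076, each Benjamini-Hochberg adjusted at 0.05. On simulated data for 9327 regions the limma step recovered 91% of 2-fold and 40% of 1.5-fold changes. In that simulation 100 regions were changed by each factor. In the data 14.3% of regions passed as higher and 19.9% as lower for IP tags, so the recovered shares may differ in the real fit. Nothing says that the replicates were separate cultures, so p-values measure the spread between these samples. Members and lists were chosen with earlier results of these data known. All 10 receptors are named, and, beside the marker genes used to check the lines, of the other lists only genes with a region in 4 lists of 1 line and none of the other. Some genes of the prostate luminal list are not reported here. Alternatives were a -log10 q minimum of 5, equal list sizes, 50% overlap, other region sets, mean peaks, median centring, a replicate block, each library left out and, added after seeing the data, scaling by average coverage.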

Additional observations from a re-analysis of the deposited data

Results flagged for a closer look

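Of 34 groups of 4 libraries examined with Dixon's test, 3 held a library far from the others, and chance flags about 1 group in 20. At EGFR-4 the IP tags of C4-2B replicate 1 were 147, against 184 to 188 in the rest of that line. At ERBB4-2 the local background of C4-2B replicate 4 was 1.61, against 1.00 in each of the others. As 1.00 is the lowest value this scale allows, any higher value there would be flagged, and the chance rate does not apply. At MET-3 the IP tags of MDV-R replicate 2 were 46.1, against 32.9 to 34.2 in the others.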

How the results depend on the processing

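Of 384 values recomputed under the alternatives for 44 results, 340 were marked as unchanged. A fitted value had to keep its sign and its side of the threshold, and a count to stay within the allowed spread. For the difference in lists called at a single region, only a reversed sign was marked as a change. The 340 therefore include shifts such as 3 to 0 at ERBB4-5 with lists of equal size. With lists of equal size 1 receptor region was called in a single line in place of 2 (MET-1 in place of EGFR-3 and FGFR2-1), and 1 in place of 2 passed for background. Under median centring 5 receptor regions in place of 3 passed for IP tags. On regions called in at least 3 lists of each line, 5 passed for IP tags and 4 for background. For IP over background, where none passed, 1 (EGFR-4) passed with the deposited fold enrichment and 1 (EGFR-4, 1.58, adjusted p = 0.0424) with scaling by average coverage, which moved the median of all shared regions from 0.44 to 0.55 (IP tags: from -0.04 to 0.06). That scaling ended the IP call at EGFR-1 (-0.37, adjusted p = 0.115) and brought ERBB3-1 (0.37, adjusted p = 0.0308) and ERBB4-2 (0.59, adjusted p = 0.0349) past the threshold. Median centring ended the background call at EGFR-1 (-1.09, adjusted p = 0.117) and made one at ERBB2-2 (1.22, adjusted p = 0.0048). Leaving out each library in turn gave 2 to 4 regions for IP tags, 1 to 2 for background, 0 to 2 for IP over background and 2 to 3 called in a single line. The sign turned for 3 values that had not passed: ERBB4-2 background (0.12, and -0.08 to 0.30 leaving out 1 library, lowest without MDV-R replicate 3), ERBB2-2 IP over background (-0.22, and -0.38 to 0.11, highest without MDV-R replicate 3) and ERBB4-2 IP over background (-0.08 under median centring, from 0.36). GGAC within 25 nt was found in 3 regions and any DRACH within 50 nt in 19, in place of 9. The cause of these changes was not tested.

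The replicate numbers shared by the lines did not pair the libraries (correlations of same-numbered deviations from -0.07 to 0.04). With the replicate block 2 regions passed for IP tags, EGFR-4 being lost (-0.44, adjusted p = 0.0511), 2 for background and 0 for IP over background.

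Depth limits the low regions: peaks of under 10 tags, as in ERBB4-5, MET-2 and FGFR1-2, lie near the 4 to 6 tags below which no peak was listed, and absence of a peak in FGFR3, FGFR4 and AXL gives no level. Values rest on summits and not on reads counted over fixed regions.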
